A study of Mus musculus with 12 samples.

Results

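The genes described here are the 4 kinases that phosphorylate the translation factor eIF2alpha (Eif2ak1, Eif2ak2, Eif2ak3 and Eif2ak4), Impact, whose product restrains one of them, and the 2 subunits that direct protein phosphatase 1 back to eIF2alpha (Ppp1r15a and Ppp1r15b). They were taken by gene name from a table of 19439 entries. All 7 were found, and all 7 were among the 11461 genes that passed the filter on low values, at least 1 RPKM in at least 3 of 12 libraries. RPKM divides reads by gene length and by the library's mapped reads, which puts levels of different genes on a common scale. The gene lengths used were not given, and the comparisons of level between genes below rest on them. RNA was sequenced from 3T3 mouse embryonic fibroblasts, a fibroblast type immortalised by serial passage, of 2 lines, p53 -/- (p53-null) and wild type for p53 (WT). The 4 groups of 3 libraries were p53-null cells in glutamine-free medium, p53-null cells in complete medium, WT cells in glutamine-free medium and WT cells in complete medium. The medium was DMEM in all groups, the lines were kept in 25 mM glucose, and complete medium held 2 mM L-glutamine; the incubation lasted 18 h. There was 1 line per genotype, so a difference between genotypes is a difference between these lines. Whether the 3 libraries of a group are separate cultures is not in the labels, so the p-values rest on a spread that may be technical only. No batch is named in the labels.

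Phosphorylated eIF2 blocks its own exchange factor, eIF2B, which slows translation in general and lets a few mRNAs with upstream open reading frames, among them that of the transcription factor ATF4, be translated more. Each kinase answers to a different input: HRI (Eif2ak1) to heme shortage and mitochondrial stress, PKR (Eif2ak2) to double-stranded RNA, PERK (Eif2ak3) to unfolded protein in the endoplasmic reticulum, and GCN2 (Eif2ak4) to uncharged tRNA when amino acids are short. GADD34 (Ppp1r15a), which is induced by stress, and CReP (Ppp1r15b), which is made in unstressed cells, bring protein phosphatase 1 to eIF2alpha and reverse the mark. The kinases are switched on by binding and phosphorylation of their proteins, and neither kinase activity nor phosphorylated eIF2alpha was measured here. The values below are mRNA levels, and in bulk RNA fewer cells of a type and less RNA per cell cannot be told apart.

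Trp53, the gene that encodes p53, was checked first. It was 33.9, 34.6 and 35.2 RPKM in p53-null glutamine-free libraries, against 109.4, 112 and 113.9 RPKM in WT glutamine-free libraries. The p53-null complete libraries held 27.9, 29.0 and 29.6 RPKM, against 58.7, 57.8 and 59.0 RPKM in WT complete libraries. Each p53-null library was below each WT library of its medium, and a gene-level value cannot tell whether the remaining transcript lacks the deleted exons. The table gives no read totals. The sum of RPKM was 284426 to 319735 per library, and the spacing of low values gave an estimated depth of 37.6 to 46.6 M reads, at which the 7 genes would have had between 470 and 13010 reads each per library. Of 10 fibroblast markers, 8 were at 1 RPKM or more in every group, while Thy1 was listed at 0 in the WT glutamine-free libraries and Lum in all p53-null libraries. Their summed level was 1423 to 1449 RPKM in p53-null glutamine-free, 2474 to 2512 in p53-null complete, 1024 to 1031 in WT glutamine-free and 4077 to 4097 RPKM in WT complete libraries. Summed markers of other cell types, 16 of 18 found, were 6.56 to 6.67, 11.1 to 11.6, 22.1 to 22.6 and 40.5 to 41.2 RPKM in the same groups. The neuronal Stmn2 and the globin Hbb-bs were at 0 in p53-null libraries. Stmn2 averaged 2.66 RPKM in WT glutamine-free and 23.5 RPKM in WT complete libraries. Tubb3 averaged 16.5 and 13.4 RPKM there, against 1.88 and 1.46 RPKM in p53-null glutamine-free and complete libraries. Cd68 went the other way, averaging 2.16 RPKM in p53-null against 0.823 RPKM in WT glutamine-free libraries, and 7.06 against 1.23 RPKM in complete medium. These marker sums move with both line and medium, and their part in the results below was not tested.

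The order of the 7 genes by level differed between the groups. In p53-null complete libraries Impact was the most abundant of the 7, at 54.1 ± 0.608 RPKM (SD, n = 3, as for all means below), and in WT complete libraries it was the least abundant, at 2.38 ± 0.0610 RPKM. Without glutamine, Ppp1r15a was the highest of the 7 in both lines, followed by Ppp1r15b. In complete medium Ppp1r15b was the second highest in p53-null cells and the highest in WT cells. Among the kinases, Eif2ak3 was the lowest in 3 of the 4 groups, and in WT complete libraries Eif2ak4 was below it. Neighbours in these orders were separated in every library except for Eif2ak2 and Eif2ak4 in p53-null glutamine-free libraries and Eif2ak4 and Ppp1r15a in p53-null complete libraries, whose values overlapped.

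**Figure D1:**
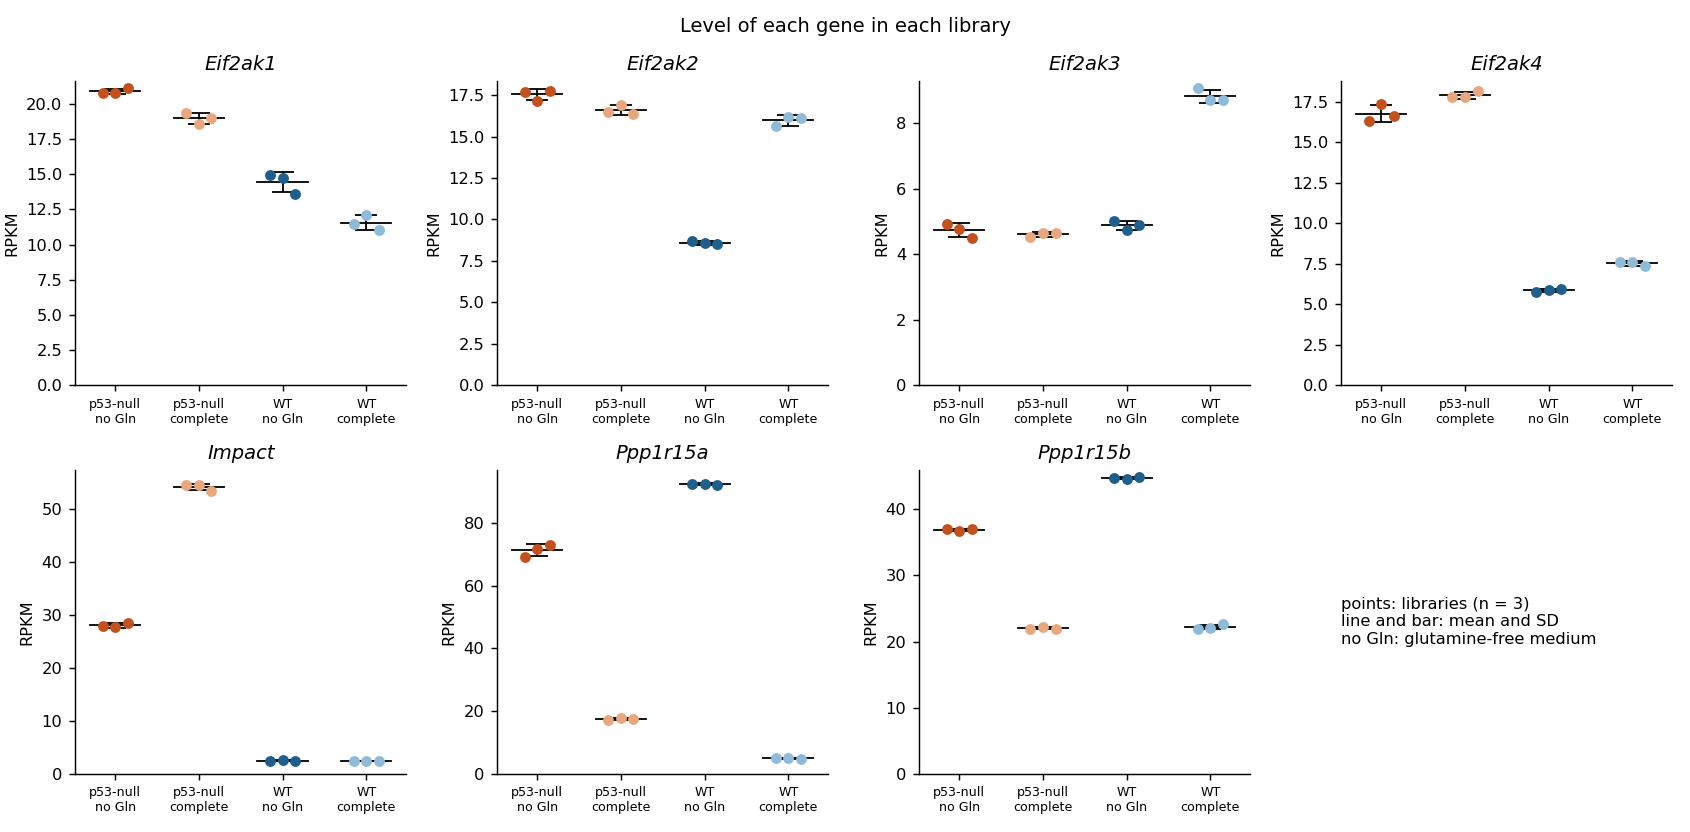
RPKM on a linear axis from 0 for each of the 7 genes, 1 panel per gene, in each library (points), grouped by line and medium, with the group mean (line) and SD (bar), n = 3. Ppp1r15a spans 4.92 to 92.5 RPKM and Impact 2.38 to 54.1 RPKM in group means, while Eif2ak3 stays between 4.61 and 8.83 RPKM.

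Ppp1r15a, which encodes the stress-induced phosphatase subunit GADD34, lies on the minus strand of chromosome 7 at 45522916 to 45526268 (mm10, GENCODE M21, as for all coordinates of genes here, and all 7 are protein coding). It rose without glutamine in both lines and more in WT cells. The p53-null glutamine-free libraries held 69.2, 71.7 and 73.0 RPKM, against 17.2, 17.9 and 17.5 RPKM in p53-null complete libraries. WT cells without glutamine held 92.6, 92.6 and 92.3 RPKM, against 4.99, 4.95 and 4.81 RPKM in WT complete libraries. No library of one group fell within the range of another. The levels were thus 4.06-fold higher without glutamine in p53-null cells and 18.8-fold higher in WT cells. On the log2(RPKM + 1) scale, on which all tests were made, the change was 1.96 ± 0.021 (SE) in p53-null cells (limma, adjusted p = 1.83e-15) and 3.98 ± 0.021 in WT cells (limma, adjusted p = 3.17e-19). These were the 10th and the 6th largest rises among 11461 genes, and exact permutation tests over the libraries (two-sided) gave the smallest p that 3 against 3 allows, 0.1, for each. The p53-null response minus the WT response was -2.02 ± 0.030 on that scale (limma, adjusted p = 9.56e-15). In complete medium the p53-null level was 3.57-fold the WT level, a log2 difference of 1.65 ± 0.021 (limma, adjusted p = 3.77e-16), and in glutamine-free medium it was 1.30-fold lower than in WT, a log2 difference of -0.37 ± 0.021 (limma, adjusted p = 1.37e-09) that was -0.21 with quantile normalization and -0.22 after rescaling all libraries to 1 sum.

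Promoter sequence is shown for the members whose windows held a searched motif and whose levels changed most with medium. RefSeq promoters of GRCm38.p6 cover 250 bases before to 50 bases after a start and were given for 5 of the 7 genes. They were searched on both strands for the cAMP response element TGACGTCA, the ATF4 composite site TGATGNAAT, the core of the interferon-stimulated response element (GAAA, any 2 bases, GAAA), CCAAT and TATAAA. The Ppp1r15a window holds TGACGTCA beginning 12 bases before the start, in capitals in the 150 bases that precede the start (chr7:45526269-45526418, minus strand).
Ppp1r15a: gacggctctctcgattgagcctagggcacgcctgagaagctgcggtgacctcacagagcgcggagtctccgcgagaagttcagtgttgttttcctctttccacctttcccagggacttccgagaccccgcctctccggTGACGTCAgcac
TGACGTCA occurs in 1.79% of 32851 promoters of that length. The Ppp1r15a window also holds the interferon-stimulated core 220 bases before the start and TATAAA 16 bases after it, letters found in 3.44% and 13.6% of promoters. TGATGNAAT, found in 0.965% of promoters, is in none of the windows of these 5 genes, which says only that these letters are not there.

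Ppp1r15b encodes CReP, the phosphatase subunit of unstressed cells, and lies on the plus strand of chromosome 1 at 133131143 to 133139783. It too rose without glutamine. It was 37.0, 36.7 and 37.0 RPKM in p53-null glutamine-free libraries, against 21.9, 22.2 and 21.9 RPKM in p53-null complete libraries. In WT cells it was 44.7, 44.5 and 44.8 RPKM without glutamine, against 21.9, 22.1 and 22.6 RPKM with it. The lines overlapped in complete medium and were apart without glutamine. The rise was 1.68-fold in p53-null cells (log2 change 0.72 ± 0.015, limma adjusted p = 3.39e-13) and 2.01-fold in WT cells (log2 change 0.98 ± 0.015, limma adjusted p = 1.85e-15). Changes at least as large were seen in 9.27% of tested genes in p53-null cells and 23.6% in WT cells. Between lines in complete medium the log2 difference was -0.01 ± 0.015 (95% interval -0.04 to 0.02, limma adjusted p = 0.435), and it was 0.09 after rescaling to 1 sum, 0.02 with quantile normalization and -0.05 with median centring, of which the values after rescaling and centring passed the test. In glutamine-free medium p53-null cells were 1.21-fold lower (log2 difference -0.27 ± 0.015, limma adjusted p = 1.01e-09), with -0.12 after rescaling and -0.41 with median centring. The predicted gene Gm26616, on the other strand, overlaps 11.4% of the exon length of Ppp1r15b, and since the kit did not mark strand its reads could not be told apart from those of Ppp1r15b.

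The stress-induced subunit was above the constitutive one in both lines without glutamine and below it in both lines with glutamine. The ratio of Ppp1r15a to Ppp1r15b RPKM was 1.93 ± 0.0530 in p53-null glutamine-free libraries, against 0.797 ± 0.00946 in p53-null complete libraries. It was 2.07 ± 0.0105 in WT glutamine-free libraries, against 0.222 ± 0.00775 in WT complete libraries. The ratio moved 2.42-fold in p53-null cells and 9.34-fold in WT cells. Without glutamine the p53-null ratio was 1.07-fold lower than that of WT cells, and in complete medium the p53-null ratio was 3.60-fold that of WT cells. All 4 of these contrasts had no overlap between libraries, and exact permutation tests (two-sided) gave 0.1, the smallest p this design allows.

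**Figure D2:**
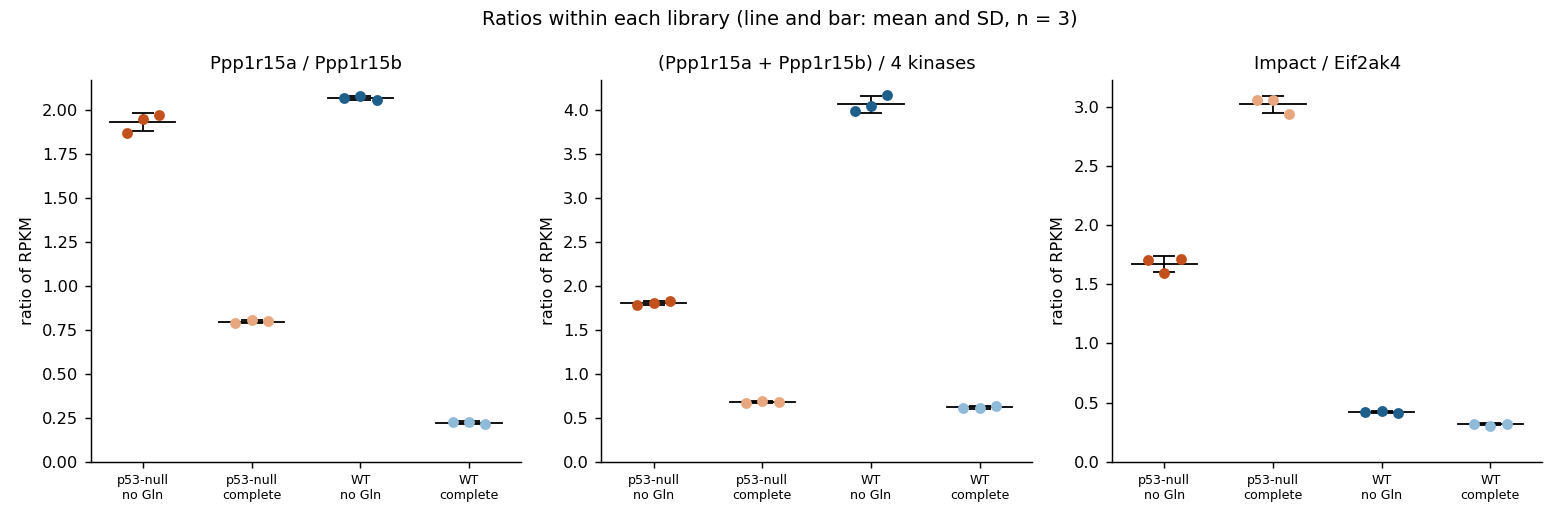
Ratios of RPKM per library (points) with the group mean (line) and SD (bar), n = 3, for Ppp1r15a over Ppp1r15b, for the sum of both over the sum of the 4 kinases, and for Impact over Eif2ak4, by line and medium. Ppp1r15a over Ppp1r15b is above 1 in both glutamine-free groups, at 1.93 and 2.07, and Impact over Eif2ak4 is above 1 in both p53-null groups, at 1.67 and 3.02.

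Eif2ak4 encodes GCN2, the kinase that senses amino acid shortage, and lies on the plus strand of chromosome 2 at 118388618 to 118475234. It was higher in the p53-null line in both media and fell without glutamine in both lines. It was 16.3, 17.4 and 16.6 RPKM in p53-null glutamine-free libraries, against 5.76, 5.88 and 5.92 RPKM in WT glutamine-free libraries. With glutamine the p53-null libraries held 17.8, 17.8 and 18.2 RPKM, against 7.59, 7.63 and 7.33 RPKM in WT libraries. Every p53-null library was above every WT library. The difference between lines was 2.87-fold without glutamine (log2 difference 1.37 ± 0.025, limma adjusted p = 1.41e-14) and 2.38-fold with it (log2 difference 1.15 ± 0.025, limma adjusted p = 6.68e-14). Glutamine withdrawal changed it by -0.09 ± 0.025 in p53-null cells (limma, adjusted p = 0.00506) and by -0.31 ± 0.025 in WT cells (limma, adjusted p = 5.44e-08) on the log2 scale. The p53-null change was -0.20 with median centring and -0.25 with quantile normalization. The difference of these responses was 0.22 ± 0.036 (limma, adjusted p = 6.63e-05), 0.12 with median centring, and 0.0092 with quantile normalization, where the call was lost (adjusted p = 0.809). Neither of the 2 RefSeq windows of Eif2ak4 holds a searched motif.

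Impact encodes a protein that competes with GCN2 for its activator GCN1. It lies on the plus strand of chromosome 18 at 12955852 to 12992950 and is an imprinted gene in mouse. Of the 7 genes it had the largest difference between the lines in both media, and its response to medium differed between them. The p53-null glutamine-free libraries held 27.9, 27.7 and 28.5 RPKM, against 2.43, 2.54 and 2.45 RPKM in WT glutamine-free libraries. In complete medium the p53-null libraries held 54.5, 54.4 and 53.4 RPKM, against 2.45, 2.33 and 2.36 RPKM in WT libraries. The lines were far apart in both media. The difference was 11.3-fold without glutamine (log2 difference 3.06 ± 0.022, limma adjusted p = 3.15e-18) and 22.8-fold with it (4.03 ± 0.022, limma adjusted p = 2.90e-19). The difference in complete medium was the 25th largest positive one among 11461 genes. In p53-null cells Impact was 1.93-fold lower without glutamine (log2 change -0.93 ± 0.022, limma adjusted p = 1.24e-12). In WT cells the change was 0.04 ± 0.022 (95% interval -0.01 to 0.09, limma adjusted p = 0.11) and the libraries overlapped. This WT value passed the test at 0.31 with quantile normalization, and at 0.05 (adjusted p = 0.0476) when WT complete replicate 1 was left out. The p53-null response minus the WT response was -0.97 ± 0.032 (limma, adjusted p = 1.10e-11).

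The ratio of Impact to Eif2ak4 RPKM, which sets the inhibitor's transcript against that of its target, was 1.67 ± 0.0683 in p53-null glutamine-free libraries, against 0.423 ± 0.00949 in WT glutamine-free libraries. In complete medium it was 3.02 ± 0.0694 in p53-null libraries, against 0.316 ± 0.00961 in WT libraries. The inhibitor's transcript was thus above that of the kinase in the p53-null line and below it in the WT line. Without glutamine the ratio was 1.81-fold lower in p53-null cells and 1.34-fold higher in WT cells, with no overlap between libraries (exact two-sided permutation p = 0.1 for each, the smallest possible). Gcn1l1, which encodes the GCN1 protein that GCN2 needs to sense uncharged tRNA, was 39.8 ± 0.304 RPKM in p53-null glutamine-free, 32.5 ± 0.126 in p53-null complete, 23.3 ± 0.798 in WT glutamine-free and 22.7 ± 0.324 RPKM in WT complete libraries.

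Eif2ak2 encodes PKR and lies on the minus strand of chromosome 17 at 78852564 to 78882573. Its transcript fell without glutamine in WT cells. The p53-null glutamine-free libraries held 17.7, 17.1 and 17.8 RPKM, against 16.5, 16.9 and 16.4 RPKM in p53-null complete libraries. WT cells without glutamine held 8.72, 8.55 and 8.49 RPKM, against 15.6, 16.2 and 16.1 RPKM in WT complete libraries. The WT glutamine-free libraries stood apart below the libraries of the other 3 groups. They were 1.86-fold lower than WT complete libraries, a log2 change of -0.82 ± 0.022 (limma, adjusted p = 4.62e-13), and a change of that size or more was seen in 30.5% of tested genes. In p53-null cells the log2 change was 0.08 ± 0.022 (limma, adjusted p = 0.0066), which turned to -0.03 with median centring and to -0.07 with quantile normalization. The p53-null response minus the WT response was 0.90 ± 0.031 (limma, adjusted p = 1.85e-11). Without glutamine the p53-null level was 2.04-fold the WT level (log2 difference 0.95 ± 0.022, limma adjusted p = 1.35e-13). In complete medium the difference was 0.05 ± 0.022 (limma, adjusted p = 0.0424), a call that was lost with median centring (0.02), when the fit held only the groups compared (adjusted p = 0.0549) and without any 1 of 6 libraries: WT complete replicates 1 and 3, p53-null complete replicates 1 and 2, WT glutamine-free replicate 2 and p53-null glutamine-free replicate 1, with log2 values from 0.04 to 0.06 over the libraries left out. Rescaling to 1 sum gave 0.15. On the other strand, Gm26637 overlaps 3.4% and n-R5s29 0.919% of the exon length of Eif2ak2, and their reads could not be told apart from those of Eif2ak2.

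The RefSeq window of Eif2ak2 holds 1 match to the core of the interferon-stimulated response element, which begins 19 bases after the start and is shown in capitals with 8 bases on each side (chr17:78882537-78882562, minus strand).
Eif2ak2: tccgccggGAAAACGAAAcagaagag
PKR is a classical interferon-induced gene, so it was set beside 26 other interferon-stimulated genes, of which 18 passed the filter on low values. A gene that passed it only through 1 high group had to differ, so the counts are a description of those 18. Without glutamine, 3 rose and 9 fell in p53-null cells (median log2 change -0.12, against 0.08 over all tested genes), where 50.0% of all tested genes rose and 32.0% fell. Median centring gave 2 up and 15 down there, where 4525 of all 11461 tested genes then rose and 4984 fell. A pseudocount of 0.1 gave a median of -0.31. In WT cells all 18 fell (median -1.31, against 0.01 over all tested genes), where 46.0% of all tested genes rose and 44.0% fell. Since many of these genes lie near or under 1 RPKM, the size depends on the pseudocount, and with 0.1 the WT median was -2.49. Eif2ak2 fell less than 17 of those 18. Ifit1, an inhibitor of foreign mRNA translation, was 0.215 ± 0.0568 RPKM in WT glutamine-free libraries, against 9.10 ± 0.348 RPKM in WT complete libraries. Isg15, a ubiquitin-like modifier, was 0.403 ± 0.0758 RPKM in WT glutamine-free libraries, against 7.49 ± 0.173 RPKM in WT complete libraries. In complete medium all 18 were lower in p53-null than in WT cells (median log2 difference -1.10, against 0.05 over all tested genes), where 48.4% of all tested genes were higher and 42.5% lower, while Eif2ak2 was above all 18 on that scale, at 0.05. That median was -2.74 with a pseudocount of 0.1, and 17 of the 18 were called after rescaling to 1 sum. With that rescaling 6154 of all tested genes were higher and 4332 lower. Without glutamine 8 were higher and 8 lower in p53-null than in WT cells (median -0.02, against 0.10), where 51.4% of tested genes were higher and 40.0% lower. That split was 3 higher and 10 lower with median centring (median -0.15) and 5 and 8 with quantile normalization. Of all tested genes, 5002 were then higher and 5397 lower with median centring, and 5301 and 5066 with quantile normalization. Stat2, a transcription factor of the interferon response, was 3.52 ± 0.137 RPKM in p53-null glutamine-free and 0.790 ± 0.0553 RPKM in WT glutamine-free libraries. These comparisons share libraries and are given side by side only. Prkra, whose product activates PKR, also fell in WT cells, at 7.59 ± 0.771 RPKM without glutamine and 16.2 ± 0.668 RPKM with it (log2 change -1.01 ± 0.056, limma adjusted p = 1.09e-09), and its change in p53-null cells was 0.03 ± 0.056 (limma, adjusted p = 0.612). Adar and Tarbp2, which also regulate PKR and are among the upstream inputs to the kinases described below, had other patterns. Adar, whose product edits double-stranded RNA, was 20.2 ± 0.242 RPKM in p53-null glutamine-free and 9.61 ± 0.196 RPKM in p53-null complete libraries, and 18.1 ± 0.553 RPKM in WT glutamine-free and 9.07 ± 0.245 RPKM in WT complete libraries. Tarbp2, whose product inhibits PKR, was 9.49 ± 0.302 RPKM in p53-null glutamine-free and 13.5 ± 0.158 RPKM in p53-null complete libraries, and 11.1 ± 0.217 RPKM in WT glutamine-free and 11.0 ± 0.480 RPKM in WT complete libraries.

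**Figure D3:**
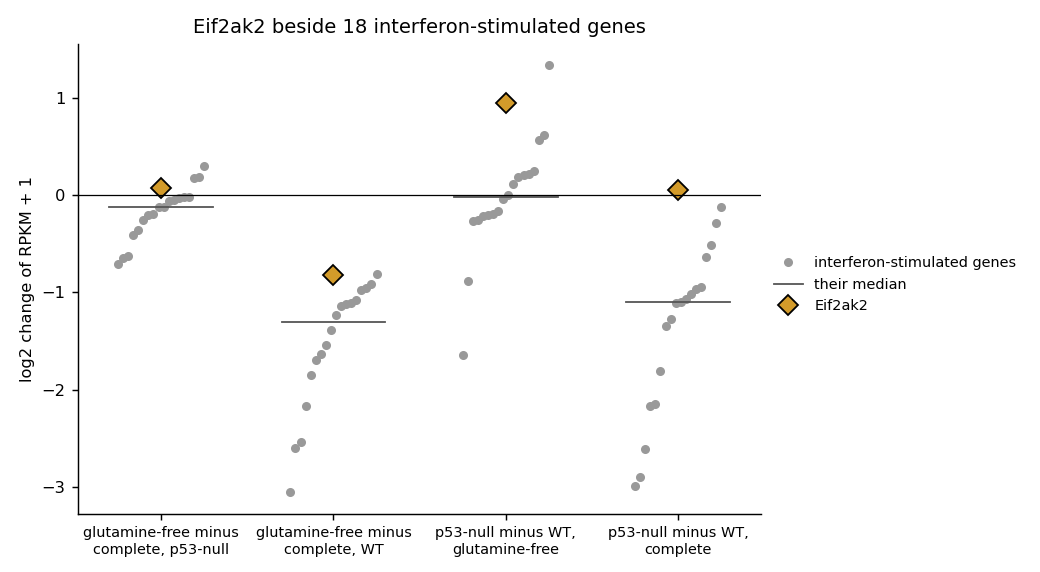
Log2 change of the 18 interferon-stimulated genes that passed the filter (grey points, median as a line) and of Eif2ak2 (diamond), for medium in each line and for line in each medium, on the log2(RPKM + 1) scale. The median of the list is -1.31 for medium in WT cells, where Eif2ak2 is at -0.82, and -1.10 for line in complete medium, where Eif2ak2 is at 0.05.

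Eif2ak3 encodes PERK, the kinase of the endoplasmic reticulum, and lies on the plus strand of chromosome 6 at 70844515 to 70905245. It was 4.91, 4.78 and 4.50 RPKM in p53-null glutamine-free libraries and 4.52, 4.66 and 4.65 RPKM in p53-null complete libraries, values that overlapped. It was 5.02, 4.75 and 4.88 RPKM in WT glutamine-free libraries, against 9.06, 8.72 and 8.70 RPKM in WT complete libraries. The WT complete libraries were above all others, and p53-null glutamine-free libraries overlapped both p53-null complete and WT glutamine-free libraries, which did not overlap each other. Without glutamine it was 1.81-fold lower in WT cells (log2 change -0.74 ± 0.032, limma adjusted p = 6.19e-11), a size that 35.3% of tested genes reached or passed. In p53-null cells the change was 0.03 ± 0.032 (95% interval -0.04 to 0.10, limma adjusted p = 0.393), and the difference of responses was 0.77 ± 0.045 (limma, adjusted p = 3.09e-09). In complete medium p53-null cells were 1.91-fold lower than WT cells (log2 difference -0.81 ± 0.032, limma adjusted p = 2.61e-11). Without glutamine the difference was -0.04 ± 0.032 (95% interval -0.11 to 0.03, limma adjusted p = 0.272), and it was 0.09 after rescaling to 1 sum, -0.17 with median centring and -0.24 with quantile normalization, all 3 past the threshold. The RefSeq window holds 6 matches to CCAAT or its reverse complement, of which 3 fall in the 150 bases before the start and are in capitals (chr6:70844365-70844514, plus strand).
Eif2ak3: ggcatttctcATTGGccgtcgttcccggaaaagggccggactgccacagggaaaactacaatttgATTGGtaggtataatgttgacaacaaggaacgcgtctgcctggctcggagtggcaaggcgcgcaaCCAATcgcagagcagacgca
CCAAT on either strand occurs in 37.4% of promoters of that length. The other kinase with a match is Eif2ak1, with 1. Gm43292, on the other strand, overlaps 8.05% of the exon length of Eif2ak3, and its reads could not be told apart from those of Eif2ak3. Hspa5, which encodes the chaperone BiP that holds PERK inactive until unfolded protein draws it away, was 363 ± 2.51 RPKM in p53-null glutamine-free and 201 ± 1.10 RPKM in p53-null complete libraries, and 427 ± 1.54 RPKM in WT glutamine-free and 166 ± 0.878 RPKM in WT complete libraries. It rose in both lines (log2 change 0.85 ± 0.011 in p53-null cells and 1.36 ± 0.011 in WT cells, limma adjusted p = 5.66e-15 and 6.31e-18).

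Eif2ak1 encodes HRI and lies on the plus strand of chromosome 5 at 143817788 to 143904251. It was 20.8, 20.8 and 21.1 RPKM in p53-null glutamine-free libraries, against 19.4, 18.6 and 19.0 RPKM in p53-null complete libraries. It was 14.9, 14.8 and 13.6 RPKM in WT glutamine-free libraries, against 11.5, 12.1 and 11.1 RPKM in WT complete libraries. All 4 groups were apart, with the p53-null libraries on top. The difference between lines was 1.45-fold without glutamine (log2 difference 0.50 ± 0.036, limma adjusted p = 1.36e-08) and 1.64-fold with it (0.67 ± 0.036, limma adjusted p = 6.24e-10). Without glutamine it was 1.10-fold higher in p53-null cells (log2 change 0.13 ± 0.036, limma adjusted p = 0.00416) and 1.25-fold higher in WT cells (0.30 ± 0.036, limma adjusted p = 3.23e-06), and the responses differed by -0.17 ± 0.050 (limma, adjusted p = 0.00767), or by -0.27 with either median centring or quantile normalization. In p53-null cells the median change over all tested genes was itself 0.08, and under median centring or quantile normalization the changes there were 0.03 and -0.03 for Eif2ak1, -0.03 and -0.07 for Eif2ak2 and -0.08 and -0.01 for Eif2ak3. Median centring shifted that median by -0.106 and changed the calls in p53-null cells to 4525 higher and 4984 lower, against 5732 higher and 3671 lower as deposited. Oma1, a mitochondrial protease that signals to HRI, was 2.47 ± 0.253 RPKM in p53-null glutamine-free and 4.47 ± 0.173 RPKM in p53-null complete libraries, and 4.04 ± 0.224 RPKM in WT glutamine-free and 6.28 ± 0.228 RPKM in WT complete libraries. Dele1, listed as 0610009O20Rik, which carries the signal from Oma1 to HRI, was 14.6 ± 0.701 RPKM in p53-null glutamine-free and 15.2 ± 0.0480 RPKM in p53-null complete libraries, and 11.7 ± 0.360 RPKM in WT glutamine-free and 7.66 ± 0.305 RPKM in WT complete libraries. Aimp2 and Ankrd61 lie on the other strand over 8.59% and 3.03% of the exon length of Eif2ak1, so reads from them could not be told apart.

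In p53-null cells the medium changed 6 of the 7, 4 up and 2 down, where 82.0% of tested genes were called. Under either median centring or quantile normalization it changed 5 of the 7, 2 up and 3 down. Of all 11461 tested genes, 4525 were then higher and 4984 lower with centring, and 5060 and 4250 with quantile normalization. In WT cells the medium changed 6 of the 7, 3 up and 3 down, where 90.1% were called. Between the lines 6 of the 7 differed in each medium, where 90.9% were called in complete and 91.4% in glutamine-free medium. The responses differed between lines for all 7, 3 higher and 4 lower in p53-null cells, where 84.9% were called, 46.4% higher. The libraries of the groups did not overlap for 6 of the 7 in each of the first 4 comparisons, as for 84.0% of tested genes for medium in p53-null cells, 90.0% for medium in WT cells, 91.2% for line in complete and 91.4% for line in glutamine-free medium. The shares of the members are near those backgrounds. Of all tested genes 0.253% rose or fell by as much as Ppp1r15a in p53-null cells and 0.122% in WT cells, against 67.7% for Eif2ak1 in WT cells.

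**Figure D4:**
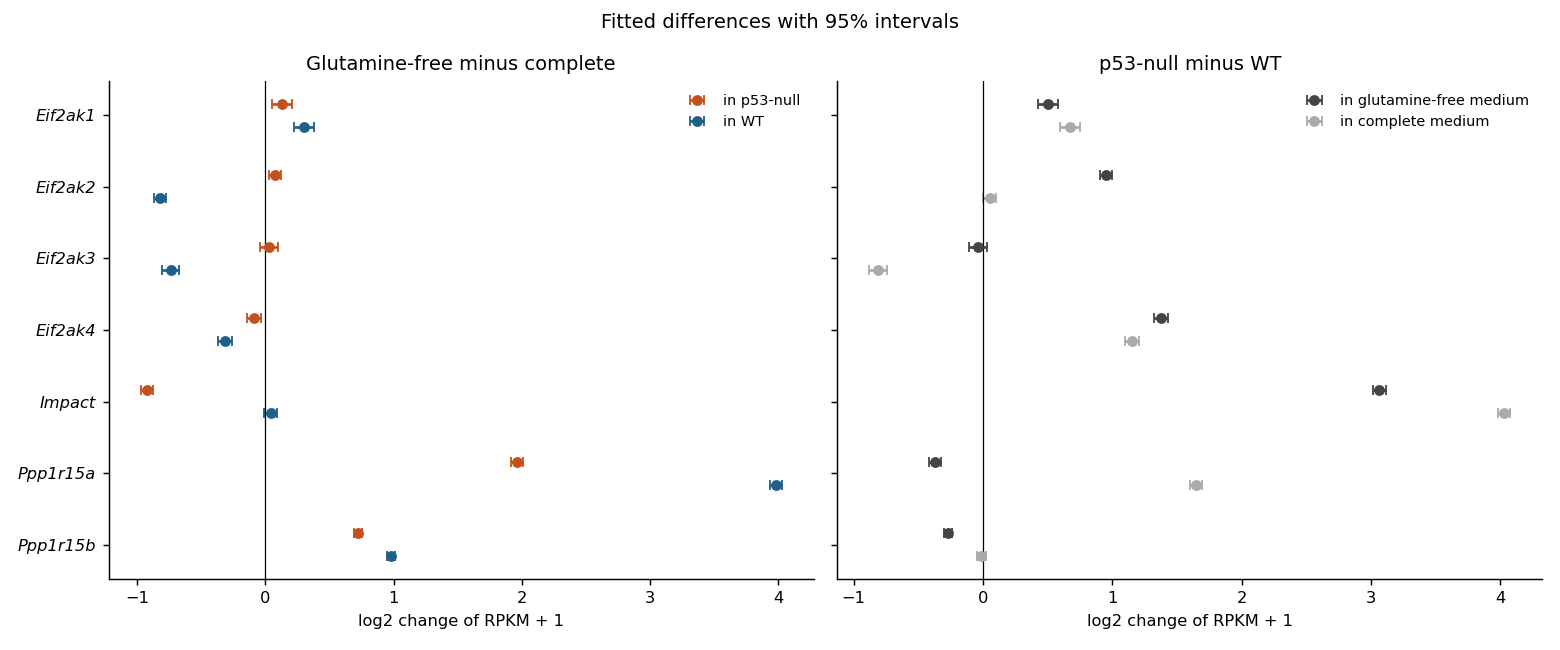
Log2 change with its 95% interval (bar) on the log2(RPKM + 1) scale for each of the 7 genes, for medium in each line (left panel) and for line in each medium (right panel), with the line of no change marked. Ppp1r15a has the largest medium change in both lines, at 1.96 in p53-null and 3.98 in WT cells, and Impact has the largest line differences, at 3.06 in glutamine-free and 4.03 in complete medium.

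Summed over the 4 kinases, the transcript level was higher in the p53-null line and fell without glutamine in WT cells. The sum was 59.9 ± 0.181 RPKM in p53-null glutamine-free libraries, against 33.8 ± 0.777 RPKM in WT glutamine-free libraries. In complete medium it was 58.1 ± 0.141 RPKM in p53-null libraries, against 43.9 ± 0.738 RPKM in WT libraries. The groups did not overlap (exact two-sided permutation p = 0.1, the smallest possible). Eif2ak1 made up 34.9% of the sum in p53-null glutamine-free, 32.7% in p53-null complete, 42.8% in WT glutamine-free and 26.3% in WT complete libraries. Eif2ak3 made up 7.89% and 7.93% in p53-null cells without and with glutamine, and 14.5% and 20.1% in WT cells. Eif2ak4 made up 28.0% and 30.8% in p53-null cells and 17.3% and 17.1% in WT cells. The sum of the phosphatase subunits over that of the kinases was 1.81 ± 0.0271 in p53-null glutamine-free, 0.680 ± 0.00958 in p53-null complete, 4.06 ± 0.0926 in WT glutamine-free and 0.618 ± 0.0144 in WT complete libraries.

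**Figure D5:**
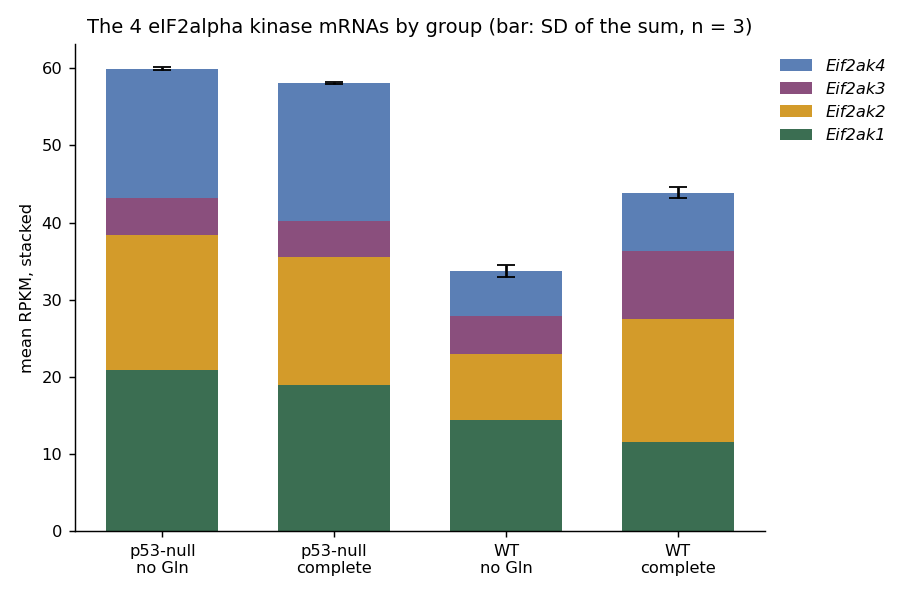
Mean RPKM of the 4 kinases stacked for each group of 3 libraries, from 0, with the SD of the sum as a bar. The sum is 59.9 and 58.1 RPKM in p53-null cells without and with glutamine, and 33.8 and 43.9 RPKM in WT cells.

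The wider pathway was described with gene lists. All 16 genes of the ATF4 and CHOP branch, the transcription programme below phosphorylated eIF2, rose in both lines without glutamine, with a median log2 change of 0.65 in p53-null cells and 2.26 in WT cells (0.08 and 0.01 over all tested genes). Of all tested genes, 50.0% rose in p53-null cells and 46.0% in WT cells. In complete medium 12 of the 16 were higher and 4 lower in p53-null than in WT cells (median 0.79), where 48.4% of tested genes were higher and 42.5% lower. Without glutamine 15 of the 16 were lower in p53-null than in WT cells and 1, Chac1, which degrades glutathione, was higher, where 40.0% of tested genes were lower and 51.4% higher. With median centring 15 were lower and 0 higher. The split was 13 lower and 2 higher with quantile normalization, and 14 and 1 after rescaling to 1 sum. Of all tested genes, 5397 were lower and 5002 higher with median centring. Those counts were 5066 and 5301 with quantile normalization, and 3813 and 6661 after rescaling. The difference of responses was lower in p53-null cells for 15 and not called for 1 (38.4% of tested genes lower). Atf4 itself averaged 270.3 ± 4.85 RPKM in p53-null glutamine-free and 206 ± 3.03 RPKM in p53-null complete libraries, and 386 ± 6.05 RPKM in WT glutamine-free and 119 ± 1.46 RPKM in WT complete libraries. Trib3, a pseudokinase that ATF4 and CHOP induce, was 110 ± 2.44 RPKM in WT glutamine-free libraries, against 4.69 ± 0.618 RPKM in WT complete libraries, and Nupr1, a stress-induced chromatin protein, was 81.6 ± 0.252 RPKM in p53-null glutamine-free libraries, against 19.8 ± 1.10 RPKM in p53-null complete libraries. Of 10 genes for eIF2, eIF2B and their partners, 6 rose and 3 fell in p53-null cells (median 0.22) and 9 rose and 1 fell in WT cells (median 0.82), where 50.0% of all tested genes rose and 32.0% fell in p53-null cells and 46.0% rose and 44.0% fell in WT cells. The p53-null median was 0.12 with median centring and 0.14 with quantile normalization. Eif2b3, an eIF2B subunit, was 8.97 ± 0.0173 RPKM in p53-null glutamine-free libraries, against 21.6 ± 0.379 RPKM in WT glutamine-free libraries. All 5 genes for the phosphatase 1 catalytic subunits and the actin cofactor fell in WT cells (median -0.80), where 44.0% of all tested genes fell. In p53-null cells 2 rose and 2 fell, where 50.0% of all tested genes rose and 32.0% fell. That split was 3 and 2 with quantile normalization and 2 and 3 with median centring. Of all tested genes, 5060 rose and 4250 fell in p53-null cells with quantile normalization, and 4525 rose and 4984 fell with median centring. Actg1 was 450 ± 2.19 RPKM in p53-null glutamine-free and 1244 ± 13.8 RPKM in p53-null complete libraries, and 178 ± 4.88 RPKM in WT glutamine-free and 1126 ± 9.25 RPKM in WT complete libraries. Of 15 upstream inputs to the kinases, 5 rose and 7 fell in p53-null cells and 7 rose and 5 fell in WT cells, beside those same shares over all tested genes. The p53-null count became 8 higher and 6 lower with quantile normalization, and 4 higher and 9 lower with median centring. The counts over all tested genes under each scaling are those given above for p53-null cells.

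The genes whose pattern over the 12 libraries was most like each member were ranked by Pearson's r of log2(RPKM + 1), as a description over libraries that share line and medium. Names of predicted genes (Gm and digits, LOC or Rik) and names turned into dates were left out. For Ppp1r15a they were Cdca7 (r = 0.9995), Slc19a2, Strap, Mfap1b and Ascc2, and for Ppp1r15b Arih2 (0.9979), Prkar2a, Gorasp2, Ube2g2 and Iffo2. Impact was closest to Celsr1 (0.9998), Cadm1, Nkx2-3, Peg3 and Ano1. Peg3 averaged 41.3 RPKM in p53-null glutamine-free and 127.8 RPKM in p53-null complete libraries, against 0.0342 RPKM in WT glutamine-free and 0.216 RPKM in WT complete libraries. Eif2ak4 was closest to Samhd1 (0.9993), Mprip, Sorbs3, Col4a1 and Agrn, and Eif2ak2 to Poc1a (0.9964), Cdk14, Ssh1, Apaf1 and Rrbp1. Eif2ak3 was closest to P4hb (0.9962), Galnt15, Syt1, A4galt and Unc5c, and Eif2ak1 to Gins1 (0.9967), Trappc8, BC005624, Nup160 and Letm1. Among the members themselves the highest r was 0.974, for Eif2ak4 and Impact, followed by 0.919 for Ppp1r15a and Ppp1r15b, and the lowest was -0.832, for Eif2ak1 and Eif2ak3.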

How the data were processed

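Libraries were made from 0.5 ug of total RNA with a TruSeq RNA kit V2, per the labels' protocols. The submitters' processing notes name CASAVA 1.8, HISAT2 2.0.4, Partek and mm10. The authors' counting rule and annotation: not given in the sources used here. The authors deposited 1 RPKM value per gene and library. Whole reads were not recovered, since 47.3 to 55.9% of low values were whole within 0.05, so no count test was run and the depth is an estimate. RPKM keeps no count, and genes with many reads lower the values of others. Of 19439 entries, 26 had names turned into dates.

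Values were transformed as log2(RPKM + 1), and limma 3.58.1 in R 4.3.3 was fitted to 4 group means, with a trend of variance on level, over 11461 genes, with Benjamini-Hochberg adjustment over all of them and calls under 0.05. There were 5 comparisons. The script was tested on simulated data. The 7 members and the 9 gene lists, 126 of 128 genes found, were chosen with earlier results of these data known. Members are named in every comparison, along with up to 2 called genes per list, comparison and direction that reached 2 RPKM in either group. The 5 genes most like each member are also named, leaving out names of predicted genes and dates. Gcn1l1, Atf4, Prkra, Tarbp2, Adar, Oma1 and Dele1 in some comparisons, and Hbb-bs, Thy1 and Lum, are outside this rule: their values had been seen when they were picked. Alternatives were a pseudocount of 0.1, no filter or a filter of 5 RPKM, quantile normalization, rescaling to 1 sum, median centring, no trend, only the groups compared, a replicate block and leaving out each library.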

Additional observations from a re-analysis of the deposited data

Results flagged for a closer look

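The response to glutamine withdrawal differed between the lines for all 7 genes by limma's test of the difference itself, p53-null response minus WT response on the log2(RPKM + 1) scale, where 84.9% of all tested genes also passed. The difference was -2.02 for Ppp1r15a, whose log2 rise was 1.96 in p53-null and 3.98 in WT cells. It was -0.97 for Impact, at -0.93 in p53-null and 0.04 in WT cells. It was 0.90 for Eif2ak2, at 0.08 in p53-null and -0.82 in WT cells, and 0.77 for Eif2ak3, at 0.03 in p53-null and -0.74 in WT cells. It was -0.26 for Ppp1r15b, 0.22 for Eif2ak4 and -0.17 for Eif2ak1. With quantile normalization the value for Eif2ak4 was 0.0092 and no longer passed (adjusted p = 0.809). With groups of 3 libraries, no library was tested for standing apart.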

How the results depend on the processing

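Of 728 values of the members' log2 changes under the alternatives, 704 kept their direction and side of the threshold, and 24 did not. In p53-null cells median centring and quantile normalization gave 0.026 and -0.032 for Eif2ak1, -0.030 and -0.073 for Eif2ak2, and -0.075 and -0.0079 for Eif2ak3. In WT cells quantile normalization gave 0.31 for Impact. Between lines in complete medium, Eif2ak2 was 0.016 with median centring and 0.051 both with only the groups compared and with the replicate block (adjusted p = 0.0648), none of them past the threshold, and Ppp1r15b was 0.089 after rescaling to 1 sum, 0.022 with quantile normalization and -0.048 with median centring. Without glutamine, Eif2ak3 was 0.086 after rescaling, -0.17 with median centring and -0.24 with quantile normalization. The difference of responses of Eif2ak4 was 0.0092 with quantile normalization. Rescaling moved the log2 difference of the summed kinases to 0.07 for medium in p53-null cells, 0.51 for line in complete and 0.98 for line in glutamine-free medium. Leaving out 1 library at a time, 413 of 420 values stayed alike, and the range was 0.036 to 0.061 for Eif2ak2 between lines in complete medium and 0.026 to 0.054 for Impact in WT cells. The cause of these shifts was not tested. Libraries with the same replicate number did not deviate together (r from -0.106 to 0.088 over 18 pairs). The values thus showed no pairing by number, which does not exclude a pairing that left no shared deviation. The replicate block changed no other call of the 7 genes. Read totals are not in the table, so depth is an estimate and no counting interval is given.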

Other observations

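Genes of the IRE1 and ATF6 branches of the unfolded protein response, which run beside PERK, numbered 16. Without glutamine 12 rose and 2 fell in p53-null cells (median log2 change 0.43), and 7 rose and 8 fell in WT cells (median -0.02). Over all tested genes 50.0% rose and 32.0% fell in p53-null cells, and 46.0% rose and 44.0% fell in WT cells. With median centring 10 of the 16 rose and 4 fell in p53-null cells, where 4525 of all tested genes rose and 4984 fell. Ern1, which encodes the IRE1 sensor, was 17.4 ± 0.106 RPKM in p53-null glutamine-free libraries, against 7.59 ± 0.150 RPKM in p53-null complete libraries, and 29.0 ± 0.345 RPKM in WT glutamine-free libraries, against 4.71 ± 0.159 RPKM in WT complete libraries. Pdia6, a disulfide isomerase of the endoplasmic reticulum, was 45.2 ± 1.35 RPKM in WT glutamine-free libraries, against 111.5 ± 0.289 RPKM in WT complete libraries.

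Of 12 genes for heme synthesis and breakdown, the input that HRI reads, 4 rose and 6 fell in p53-null cells and 6 rose and 6 fell in WT cells, beside those same shares over all tested genes. The p53-null split was 3 and 8 with median centring and 4 and 8 with quantile normalization. Of all tested genes, 4525 rose and 4984 fell there with median centring, and 5060 rose and 4250 fell with quantile normalization. Hmox1, the heme-degrading oxygenase, was 26.7 ± 0.190 RPKM in p53-null glutamine-free libraries, against 91.9 ± 3.32 RPKM in WT glutamine-free libraries. In WT complete libraries Hmox1 was 25.5 ± 0.521 RPKM. Urod, an enzyme of heme synthesis, was 6.47 ± 0.562 RPKM in WT glutamine-free libraries, against 21.7 ± 0.734 RPKM in WT complete libraries.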
